A study of Mus musculus with 21 samples.

Results

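Muscarinic acetylcholine receptors and lysophosphatidic acid (LPA) receptors are both G protein-coupled receptors of the cell surface, and 10 of their genes are described here: the muscarinic genes Chrm1, Chrm2, Chrm3 and Chrm4, and the LPA receptor genes Lpar1 to Lpar6. They were picked by symbol out of the 22040 genes listed in at least 1 of 4 deposited tables, and all 10 were listed in each table. The study sequenced RNA of 21 mouse cortical neuron cultures. WT DMSO and Tau DMSO had 5 cultures each, Tau AdipoRon had 5 and WT AdipoRon had 6. By the study's reporting summary the drug treatments used samples of the same animals, so the 21 cultures are not 21 independent pups. AdipoRon is a small-molecule activator of the adiponectin receptors, given at 10 μM for 24 h, and DMSO was its vehicle. The drug protocol in the labels writes the dose as 10 mM, while the treatment tag of each culture has 10 μM.

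The Tau cultures came from newborn pups that carry a human tau cDNA with the P301S mutation (hTau P301S), driven by a prion promoter. They were seeded with pre-formed tau fibrils at 3 μg/mL on day 7 and kept for 18 more days. Whether the WT cultures were seeded too is not settled: the growth protocol in the labels names transgenic neurons only, while the study's text dates RNA of both genotypes from the seeding. If they were not, the transgene and the fibrils cannot be told apart in a Tau against WT difference. The WT cultures had no transgene, and all 4 groups received 1 μM cytosine arabinoside, a drug that removes dividing glia. Each table holds 1 mean level per gene over 2 groups: the 10 DMSO cultures, the 11 AdipoRon cultures, the 10 Tau cultures or the 11 WT cultures. The level is in log2 CPM (log2 of the read count of a gene scaled to a common library total, as averaged by the authors' edgeR fit). No value per culture was used, so no difference given below carries a replicate error or a test. The study gives only an approximate mean of reads per sample, so the depth of each culture is unknown. The 4 means overlap in their cultures, so they give the AdipoRon difference averaged over both genotypes and the genotype difference averaged over both treatments. The AdipoRon response of 1 genotype alone cannot be read from them.

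The labels of the WT cultures cite other tables than the table names do. If the names hold, the mean CPM of the DMSO and AdipoRon tables should add up to nearly that of the Tau and WT tables for every gene, not exactly, since the groups are of 5 and 6 cultures. Over the 19399 genes in all 4 tables the 2 sums differed by a median of 0.623% of the mean level, against 14.6% and 10.9% for the other pairings of the tables. The sums would be the same if the 2 tables of a pair were exchanged, so which table is DMSO and which AdipoRon, or which Tau and which WT, rests on the table names, and with it the direction of every difference. For the 10 receptors the difference of the sums lay between -2.98% (Chrm4) and 1.94% (Lpar6). This number is an arithmetic limit and says nothing of the spread between cultures.

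Acetylcholine released by cholinergic fibres acts on muscarinic receptors in cortex, where it tunes excitability and plasticity. The receptors encoded by Chrm1 and Chrm3 couple mainly to Gq proteins, which turn on phospholipase C beta, while those encoded by Chrm2 and Chrm4 couple mainly to Gi/o proteins, which lower cyclic AMP. LPA is a signalling lipid made outside the cell by autotaxin, and its receptors act through Gq, Gi/o and G12/13 proteins, with collapse of growth cones and retraction of neurites as well-known outcomes. Lpar1, Lpar2 and Lpar3 form one branch of the LPA receptors, and Lpar4, Lpar5 and Lpar6 belong to another, related to the nucleotide receptors.

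The 5′ flanks of Chrm4 and Lpar2 are shown first, since these are the 2 members whose level was higher by at least 0.5 (log2) in AdipoRon cultures. RefSeq (build GRCm38.p6, which is mm10) had a start site for 9 of the 10 genes. Chrm1 was the gene with no entry. The 250 bases before the start of Chrm4 lie at chr2:91921939-91922188 on the plus strand, and those of Lpar2 at chr8:69822315-69822564 on the plus strand. Capitals mark each match to the GC box (GGGCGG) or to the AP-1 site (TGANTCA), on either strand.
Chrm4: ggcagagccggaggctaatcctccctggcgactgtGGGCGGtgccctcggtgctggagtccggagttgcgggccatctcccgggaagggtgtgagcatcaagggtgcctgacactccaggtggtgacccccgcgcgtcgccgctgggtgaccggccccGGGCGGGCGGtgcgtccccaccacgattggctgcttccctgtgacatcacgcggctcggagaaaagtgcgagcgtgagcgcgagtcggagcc
Lpar2: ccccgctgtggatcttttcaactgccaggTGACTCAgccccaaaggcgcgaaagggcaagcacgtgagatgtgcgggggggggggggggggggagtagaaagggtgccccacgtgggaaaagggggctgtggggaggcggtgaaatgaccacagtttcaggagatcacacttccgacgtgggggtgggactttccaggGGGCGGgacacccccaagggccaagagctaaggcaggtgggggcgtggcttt
The Chrm4 flank had a GC content of 70% and 3 GC boxes, of which 2 overlap, and the Lpar2 flank had 64.4% with 1 GC box and 1 AP-1 site. A high GC content with GC boxes was not particular to these 2 genes. Of members not past 0.5 with AdipoRon, Lpar3 had 69.6% and 3 GC boxes, while Lpar6 had 39.2% and 0. Chrm3, which was lower with AdipoRon, had 61.2% and 0. Over all 32851 start sites of the table the median GC content was 52.4%, 32.7% of flanks held a GC box and 6.75% an AP-1 site. Of the 12 start sites of the 9 genes, 9 held a GC box, 1 an AP-1 site and 1 the TATA box letters TATAAA (Lpar4), which 12.4% of all flanks hold. The letters TGACG, the core of the cyclic AMP response element, were in 0 of the 12 and in 17.8% of all flanks. These are matches of letters only, in 1 short window per start.

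Chrm1 had the highest level of the 10 genes and Lpar3 the lowest. Per kilobase of the longest annotated transcript (GENCODE M39), and averaged over the 4 tables, the levels were 3.90 for Chrm1, 3.33 for Chrm3 and 3.31 for Chrm4 on the log2 scale. They were 1.08 for Lpar6, 0.98 for Lpar1, 0.00 for Lpar5, -0.28 for Chrm2, -0.58 for Lpar4, -1.04 for Lpar2 and -2.92 for Lpar3. Of the 4 muscarinic genes, 3 stood above every LPA receptor gene on this scale. With coding length in its place Lpar6, at 3.47, came before Chrm4, at 3.31, since the annotated Chrm4 transcript of 1440 bases holds little beyond its coding part. The longest Lpar6 transcript has 5400 bases, more than the span of the gene given below, so its value per kilobase may be too low. Which neighbours in this order differ beyond the spread between cultures was not tested.

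**Figure D1:**
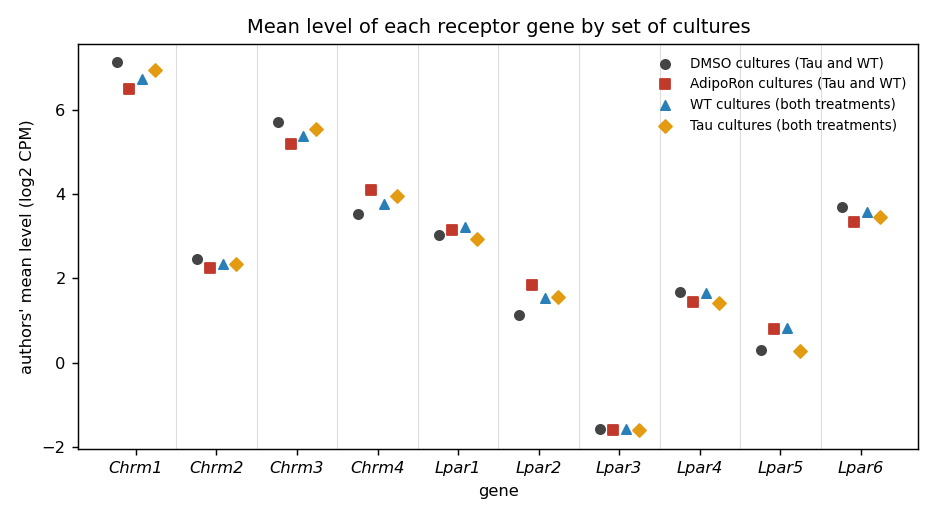
Authors' mean level of the 10 receptor genes (y axis, log2 CPM, not scaled by length) in 4 overlapping sets of cultures; each point is 1 pooled mean and no error is available. The DMSO point lies above the AdipoRon point for Chrm1 (7.12 and 6.49) and below it for Chrm4 (3.53 and 4.10), while the points of Lpar3 lie on top of each other.

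Among the Gq-coupled muscarinic receptors, Chrm1 (Entrez gene 12669, chr19:8664005-8683606) had a mean level of 7.12 log2 CPM in DMSO cultures, 6.49 in AdipoRon cultures, 6.95 in Tau cultures and 6.73 in WT cultures. It is the main muscarinic receptor of cortical pyramidal neurons. On the linear scale this was 139 CPM with DMSO and 90.1 CPM with AdipoRon, and the gene lay between the percentiles of 86.7 and 92 among the genes of each table. Differences between tables are given from here on less the median over the 19399 shared genes, which was 0.0258 for AdipoRon minus DMSO and -8.13e-04 for Tau minus WT (log2). The level of Chrm1 was 0.635 times as high with AdipoRon, a difference of -0.66. Of the 3864 genes within 1 log2 unit of its level, 2.48% had a lower difference.

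Chrm3 (Entrez gene 12671, chr13:9875486-10361062), which also signals through phospholipase C, had the same order of means at a lower level. Its mean was 5.70 log2 CPM in DMSO, 5.18 in AdipoRon, 5.55 in Tau and 5.37 in WT cultures. The difference of AdipoRon from DMSO was -0.54 on the log2 scale, or 0.687 times the DMSO level, and 3.5% of genes of like level had a lower one. In Tau against WT cultures, Chrm1 was higher by 0.23 and Chrm3 by 0.17 (log2). Among genes of like level, 98.5% had a lower Tau minus WT difference than Chrm1 and 97% a lower one than Chrm3. Chrm1 and Chrm3 thus had their highest pooled mean in DMSO cultures and their lowest in AdipoRon cultures.

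The Gi/o-coupled Chrm4 (Entrez gene 12672, chr2:91922189-91929835), best known from striatal neurons, had the opposite order between treatments. Its mean level was 3.53 log2 CPM in DMSO cultures and 4.10 in AdipoRon cultures, with 3.96 in Tau and 3.77 in WT cultures. This is 11.6 CPM against 17.1 CPM, and a difference of 0.54 (log2, 1.45 times the DMSO level), above that of 97% of the 4359 genes of like level. Tau cultures were 0.19 above WT cultures.

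Chrm2 (Entrez gene 243764, chr6:36387991-36528638) encodes the receptor that restrains acetylcholine release from cholinergic terminals. Its level was 2.45 log2 CPM with DMSO, 2.25 with AdipoRon and 2.35 in both Tau and WT cultures. The AdipoRon difference was -0.23 and the genotype difference 0.00 (log2). In the annotation 1121 exonic bases of Chrm2 are shared with 9330158H04Rik, a non-coding gene of the opposite strand, and the strand setting of the authors' counting is not given in the sources used here, so reads of the pair may be mixed. Gm54900, which likewise shares 329 exonic bases with Chrm1 on the opposite strand, and 9330158H04Rik were not in all 4 tables.

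Of the first branch of LPA receptors, Lpar1 (Entrez gene 14745, chr4:58435252-58554027), abundant in oligodendrocytes and in neural progenitors, had 3.02 log2 CPM in DMSO, 3.16 in AdipoRon, 2.93 in Tau and 3.22 in WT cultures. Its AdipoRon difference was 0.11 and its Tau minus WT difference -0.29 (log2). The Tau cultures had 7.63 CPM against 9.34 CPM in WT cultures, and 12.5% of the 3429 genes of like level had a lower genotype difference.

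Lpar2 (Entrez gene 53978, chr8:69822565-69831102) had the largest AdipoRon difference among the members, upward. Its level was 1.13 log2 CPM with DMSO and 1.84 with AdipoRon, and it was 1.55 in Tau and 1.53 in WT cultures. AdipoRon cultures were 0.68 above DMSO cultures on the log2 scale, 1.61 times as high, and 96.2% of the 2660 genes of like level had a lower difference. The level is low, at 2.18 CPM and 3.57 CPM. The genotype difference was 0.02.

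Lpar3 (Entrez gene 65086, chr3:146220961-146286214) was close to the lower end of the tables. Its mean was -1.57 log2 CPM in DMSO and WT cultures and -1.60 in AdipoRon and Tau cultures, or 0.33 to 0.338 CPM. At so low a level a difference may not have been detectable, and the 4 means span 0.03 (log2).

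In the second branch, Lpar4 (Entrez gene 78134, chrX:106920625-106933899), which can act through G12/13 proteins, had 1.67 log2 CPM in DMSO, 1.44 in AdipoRon, 1.43 in Tau and 1.65 in WT cultures. It was lower by 0.25 with AdipoRon and by 0.22 in Tau cultures (log2 differences of -0.25 and -0.22).

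Lpar5 (Entrez gene 381810, chr6:125067844-125086129), described in microglia among brain cells, had the largest genotype difference of the members, downward. Its level was 0.27 log2 CPM in Tau cultures and 0.82 in WT cultures, with 0.30 in DMSO and 0.80 in AdipoRon cultures. Tau cultures were at 0.686 times the WT level, a difference of -0.54 (log2), and 7.11% of the 2982 genes of like level had a lower one. The AdipoRon difference was 0.47. Both differences rest on 1.21 to 1.76 CPM.

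Lpar6 (Entrez gene 67168, chr14:73237891-73240358), known for inherited hair loss when mutated in people, had 3.69 log2 CPM with DMSO, 3.34 with AdipoRon, 3.45 in Tau and 3.57 in WT cultures. The AdipoRon difference was -0.38, which is 0.767 times the DMSO level, and the genotype difference -0.11. The gene lies inside Rb1, on the other strand, and shares 408 exonic bases with it. Rb1 itself, at 5.68 log2 CPM with DMSO, had an AdipoRon difference of 0.01 and a genotype difference of 0.00 (log2).

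A log2 difference of 0.5 or more in size was counted, with no test. With AdipoRon, 2 of the 10 receptors were higher by that much (Chrm4 and Lpar2) and 2 lower (Chrm1 and Chrm3). Of all 19399 genes, 3.81% were higher and 6.81% lower by the same measure. The study had already grouped these receptor families from the AdipoRon comparison of the same cultures, so their count is not independent evidence of a response. The 4 muscarinic genes had a median AdipoRon difference of -0.39, with 3 below 0, and the 6 LPA receptor genes had a median of 0.03, with 3 below 0. By genotype, 0 of the 10 were higher in Tau cultures by at least 0.5 and 1 was lower (Lpar5), where 3.45% and 3.57% of all genes were. The muscarinic median was 0.18 and the LPA receptor median -0.17 (log2, Tau minus WT), and 5 of the 6 LPA receptor genes were below 0. Just inside the count for AdipoRon were Chrm3 and Chrm4, at -0.54 and 0.54, and just outside it was Lpar5 at 0.47.

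**Figure D2:**
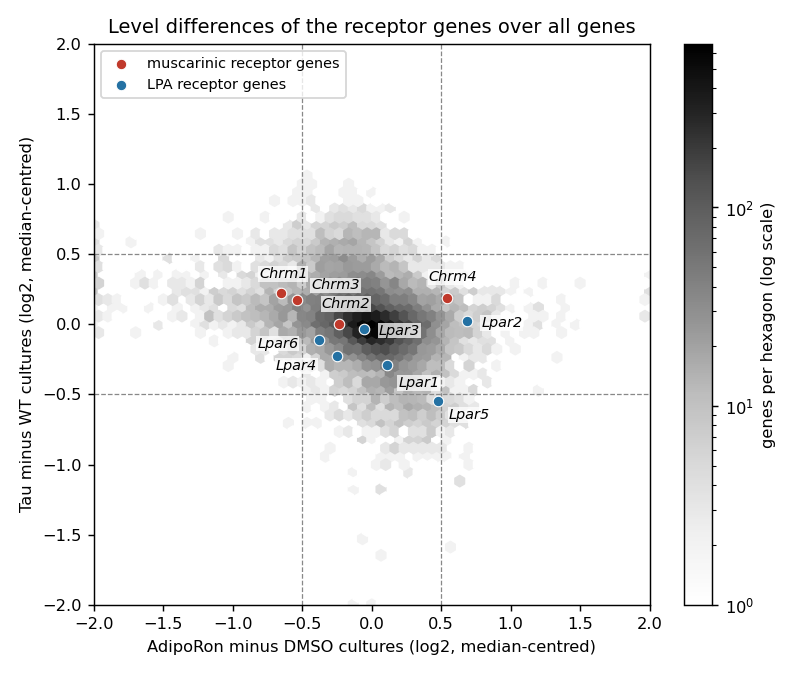
Difference of pooled mean levels between AdipoRon and DMSO cultures (x axis) and between Tau and WT cultures (y axis), both in log2 and median-centred, for 19399 genes (grey, darker where more genes lie, values beyond 2 drawn at the edge) and the 10 receptors; dashed lines are at 0.5 in size. Chrm1 and Chrm3 lie to the left of the dashed line, Chrm4 and Lpar2 to the right, and Lpar5 alone below.

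The genes around the receptors were read from 9 short lists. Of their 40 genes 39 were in all 4 tables, and the 39 had a median AdipoRon difference of 0.06 (log2), with 2 higher and 4 lower by at least 0.5. Slc5a7, the choline transporter, was the gene not in all 4.

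Among genes of acetylcholine handling, Ache, the enzyme that ends the signal by splitting acetylcholine, had 6.73 log2 CPM in DMSO and 5.90 in AdipoRon cultures, a difference of -0.85. Chat, which makes acetylcholine, differed by 0.06. The level of Chat was 1.76 log2 CPM with DMSO. Bche, a related esterase, was lower in Tau than in WT cultures by 0.85 (a difference of -0.85, log2).

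Of the 6 LPA genes, Enpp2, which encodes autotaxin, was at 7.13 log2 CPM in DMSO and 6.57 in AdipoRon cultures, a difference of -0.58. The lipid phosphatase gene Plpp2 had a difference of 0.54. Plpp3, another such phosphatase and the most abundant gene of the list at 8.76 log2 CPM with DMSO, differed by 0.08. Of the 6 genes 5 were above 0, and the median was 0.09. For Tau against WT cultures, Enpp2 was at -0.47 and Pla1a, a secreted phospholipase, at 0.82 (log2).

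G proteins differed little, apart from 1 gene. The 5 Gi/o genes lay between -0.21 (Gnai1) and 0.09 (Gnai2) with AdipoRon, and Gna12 and Gna13 at 0.11 and 0.13. Gnaq, which encodes the Gq alpha subunit, differed by -0.11. Gna15, a Gq family gene typical of blood-lineage cells, was higher by 0.72 with AdipoRon and had a Tau minus WT difference of -1.01, at 0.48 log2 CPM in DMSO cultures.

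Downstream of Gq, the 4 phospholipase C beta genes lay between -0.35 (Plcb1) and 0.22 (Plcb2) with AdipoRon, and the 3 genes of exchange factors driven by G12/13 between -0.05 (Arhgef12) and 0.23 (Arhgef1). Kcnq5 encodes a subunit of the M-type potassium channels that muscarinic receptors close, and it had the largest difference of the lists. Its level was 5.88 log2 CPM with DMSO and 4.68 with AdipoRon, a difference of -1.23. Kcnj3, a potassium channel subunit opened by Gi/o-coupled receptors, differed by -0.70, and its relative Kcnj9 by 0.25. Of the 5 channel genes 4 were lower with AdipoRon, and all 5 were higher in Tau than in WT cultures, by 0.10 to 0.22 (log2). Of 6 receptor kinase and arrestin genes, which switch such receptors off, none differed by 0.5, with a highest value of 0.44 (Arrb1).

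**Figure D3:**
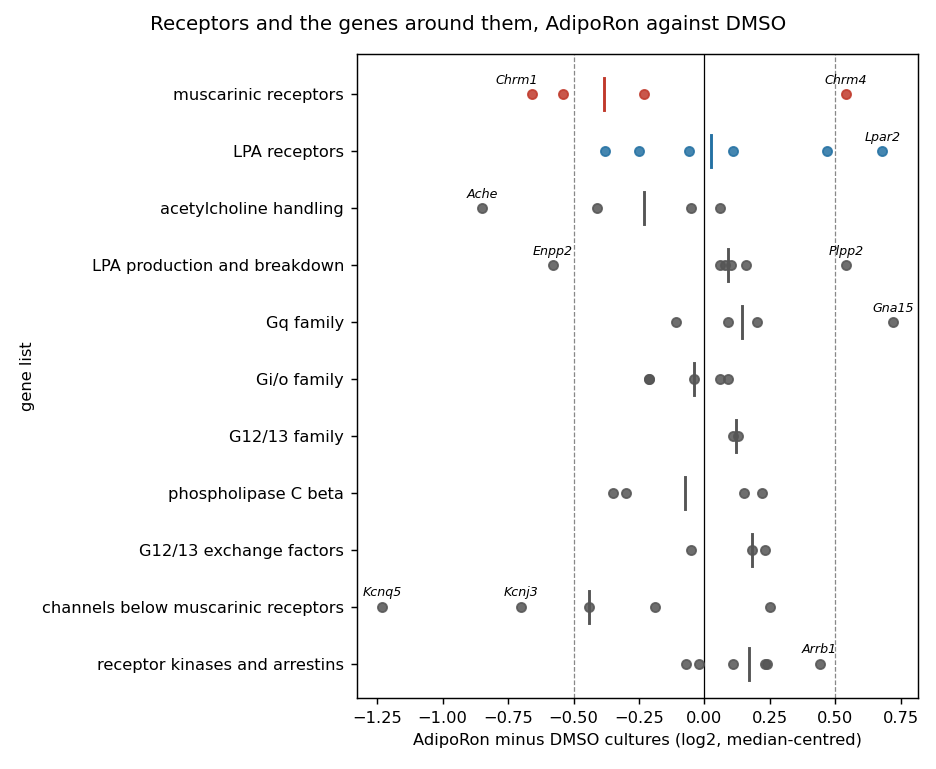
AdipoRon minus DMSO difference (x axis, log2, median-centred) of the receptor genes (red and blue) and of 9 lists of genes around them (grey); each point is a gene, the short vertical bar is the list median and dashed lines are at 0.5 in size. Kcnq5 (-1.23), Ache (-0.85) and Gna15 (0.72) lie farthest out.

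Markers show which cells the cultures held. Neuronal genes were abundant, with Snap25 at 10.11 log2 CPM with DMSO, and so was the astrocyte gene Gfap at 10.70, in spite of the cytosine arabinoside. Of the vascular and mural genes, Pecam1 was at -0.99, Kdr at -0.37, Vwf at 1.86 and Pdgfrb at 4.72 log2 CPM with DMSO. Cldn5 was not listed. In bulk RNA, fewer cells of a type and less RNA per cell cannot be told apart.

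Microglia and oligodendrocyte markers were lower in Tau than in WT cultures, as were Lpar5, Lpar1 and Gna15. So were Lpar4 (-0.22), Lpar6 (-0.11), Lpar3 (-0.03), Bche (-0.85) and Enpp2 (-0.47), while Lpar2 was at 0.02. Of the 39 pathway genes 18 were below 0 and 21 above. All 7 microglia markers were lower in Tau cultures, between -0.42 (P2ry12) and -1.41 (Aif1), and their summed level was 198 CPM in Tau against 399 CPM in WT cultures. All 9 oligodendrocyte lineage markers were lower too, between -0.17 (Olig1) and -1.64 (Sox10), with sums of 1199 CPM and 1610 CPM. The part of these cells in the genotype differences of the receptor and pathway genes was not tested. Of the 4 excitatory neuron markers all were higher in Tau cultures, with a median of 0.41 (log2), and the 5 general neuron markers lay between 0.07 and 0.21, beside the 0.23 and 0.17 of Chrm1 and Chrm3. The genotype medians of the remaining lists were -0.01 for inhibitory neurons, 0.03 for astrocytes, -0.28 for vascular and mural cells and 0.46 for meningeal cells and fibroblasts.

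Between treatments, the 5 general neuron markers were all lower with AdipoRon, between -0.15 (Tubb3) and -0.32 (Snap25). Their sum was 2900 CPM with DMSO and 2455 CPM with AdipoRon. The 4 excitatory neuron markers had a median of -0.44, where Neurod6 was at -1.34, Slc17a6 at -0.56 and Slc17a7, the most abundant, at 0.08. Their sum went the other way, at 571 CPM with DMSO and 602 CPM with AdipoRon. The microglia sum was 283 CPM with DMSO and 325 CPM with AdipoRon. The 7 microglia markers were split with AdipoRon, 4 above 0 and 3 below, from -0.50 (Cx3cr1) to 0.41 (C1qb). Their median was 0.18 (log2), and Lpar5 was at 0.47. The medians of the other lists with AdipoRon were -0.25 for inhibitory neurons, 0.01 for astrocytes, -0.25 for the oligodendrocyte lineage, 0.06 for vascular and mural cells and -0.19 for meningeal cells and fibroblasts. Of the 9 oligodendrocyte lineage markers 8 were below 0 with AdipoRon, while Lpar1 was at 0.11. The part of neuron content in the differences of Chrm1 and Chrm3 was not tested.

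**Figure D4:**
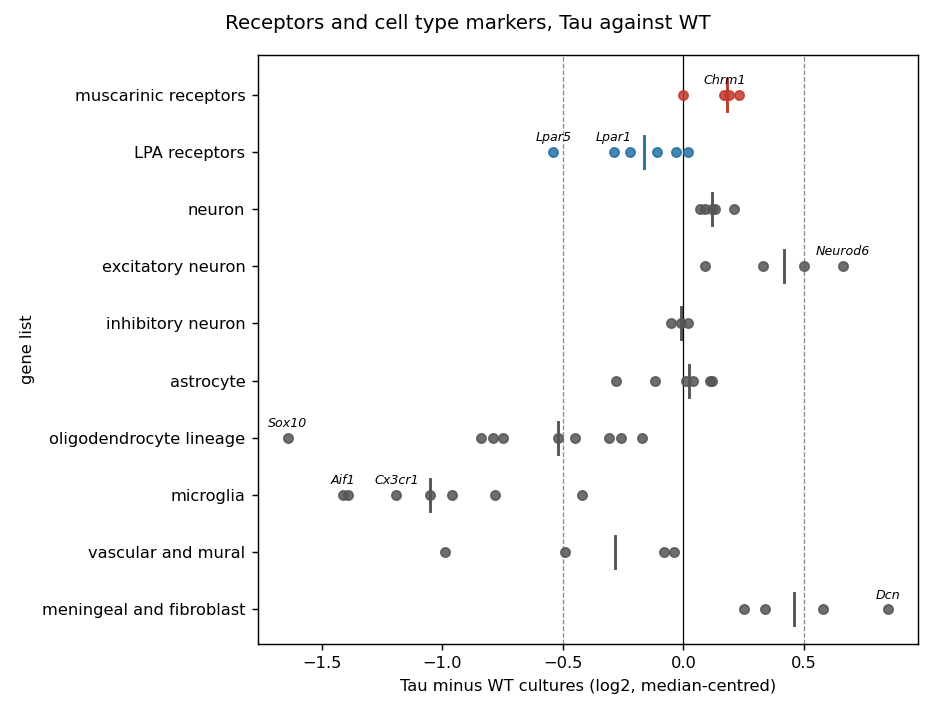
Tau minus WT difference (x axis, log2, median-centred) of the receptor genes (red and blue) and of 8 lists of cell type markers (grey); each point is a gene, the short vertical bar is the list median and dashed lines are at 0.5 in size. The microglia markers all lie to the left of 0, from -0.42 to -1.41, on the same side as Lpar5 at -0.54.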

How the data were processed

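Each of 4 tables deposited by the authors gives, per gene, a mean level over the cultures of 2 groups in log2 CPM. The authors trimmed the reads, used STAR for alignment to the mouse build mm10, counted genes by RSEM and fitted the generalized linear model of edgeR. The table names mention Rsubread and the results text GRCm39, so the counting step is not settled. How libraries were scaled and low genes filtered is not given in the sources used here. The other columns hold the authors' own comparisons (log2 fold changes, likelihood ratios, p-values, false discovery rates and a call) and were not used.

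Samples were grouped by title. Means were compared between tables that were normalized separately, with the median over 19399 shared genes subtracted, in Python 3.11.15 with pandas 2.3.3. The CPM of each table added up to between 1001329 and 1002094. No model was fitted, since the tables hold 0 columns of values per culture, and differences were therefore only described, at a log2 size of 0.5. The arithmetic was checked on simulated data with shifts larger than 0.5 and no separate normalization, so the check does not bear on differences near that limit. Percentiles are shares of genes with a lower value. Transcript lengths came from GENCODE M39, where 17269 of the 19399 symbols were found. Flanks of 250 bases came from RefSeq.

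All members are named. The plan for the pathway lists was to name the 2 genes with the largest difference up and down in each comparison and the 2 with the highest level of each list. It was followed only in part. Genes of high level such as Gnao1 and Kcnq3 were not named in the results, and some other genes were. A gene of the channel list is not reported here and was left out of its counts. Marker genes named singly were chosen after their values were seen. Members and lists were chosen with earlier results of these data known.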

Additional observations from a re-analysis of the deposited data

How the results depend on the processing

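No paired analysis was possible because the tables hold means over cultures and no column carries a replicate number, and leaving out single cultures could not be run for the same reason. The 60 AdipoRon and genotype differences of the 10 receptors under 3 alternatives (no centring, centring on the 9424 genes over 4 log2 CPM in all tables, and linear means with the closure error shared out) moved by at most 0.03 (log2), and the counts of members past 0.5 stayed at 2 higher and 2 lower with AdipoRon and at 0 and 1 by genotype. The 2 centring alternatives change every gene by the same constant, and the last alternative leaves each difference nearly unchanged by construction. This stability therefore follows from the arithmetic and says nothing of the spread between cultures. Without centring, Lpar5 was at 0.50 with AdipoRon, which lies under the limit only before rounding. The count of 2 higher is therefore at its edge. The share of all genes past 0.5 by genotype was 7.02%, and 4.29% among the 15441 genes over 0 log2 CPM in all tables, a background that by its construction leaves out low genes. For AdipoRon the shares were 10.6% and 8.53%. Against protein-coding genes alone, 8 of the 10 level percentiles moved by 5 points or more, such as that of Chrm3 to 63.8. Coding length, chosen after seeing the data in place of a protein table, moved 5 of 10 places in the order of levels. Beyond the study's approximate mean of reads per sample, the depth of each culture and the spread between cultures are unknown. The low genes Lpar2, Lpar3, Lpar4 and Lpar5 rest on the fewest reads.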
